A study of Mus musculus with 180 samples.

Results

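The lung response of wild-type mice to bacterial lipopolysaccharide (LPS) was measured in 8 of the 180 RNA libraries of a series that covers 15 mouse tissues. C57BL/6J mice 5 to 8 were given 5 mg/kg LPS, and C57BL/6J mice 1 to 4 were given PBS as the vehicle. Libraries were chosen by their labels alone, and all 13820 genes of the lung table were kept in view. All animals were 6-week-old females, their tissues were taken at 12 hours, and they were first perfused with PBS and EDTA. The lungs of 4 B6.129S-Tnftm1Gkl/J animals without TNF, given the same LPS dose, entered only the filter on low values and the shared estimate of the spread. Each animal gave 1 library per tissue, whole lung tissue was used, and the design holds 1 dose and 1 time.

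LPS, a component of the outer membrane of Gram-negative bacteria, is recognised by TLR4 together with CD14 and LBP. One arm of the signal passes through MYD88 to the NF-kB factors and drives chemokines and cytokines. The other leads to type I interferon and from there to interferon-stimulated genes. The lung is known in this setting for the trapping of neutrophils in its capillaries, for a leaky endothelium and for a disturbed alveolar epithelium, whose type 2 cells make surfactant and whose type 1 cells form the gas exchange surface.

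The labelled tissue matched its markers. In PBS mice the surfactant gene Sftpc averaged a signal of 32731 in lung, against 456 in bone marrow, the highest of the other 14 tissues, and Ager, a type 1 cell marker, averaged 408 against 10.7 in thymus. Total counts of the 8 libraries ran from 519028 to 1470100. Values are a normalised signal in which 1 count stood for 0.632 to 1.46 units, so a signal of a few units rests on a few counts. Differences are given on the scale log2(signal + 1), LPS minus PBS, with the standard error (SE) of limma's fit, and a gene was called at a Benjamini-Hochberg adjusted p below 0.05 over 13245 genes tested. Signals of single animals are listed in the order of mice 5, 6, 7 and 8 for LPS and mice 1, 2, 3 and 4 for PBS. Because whole tissue was measured, fewer cells of a type and less RNA per cell cannot be told apart anywhere below.

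The library of LPS mouse 6 stood apart. The first principal component (51.5% of the variance) separated the LPS from the PBS libraries, and on the second (14.6%) mouse 6 lay at -57.5, against -2.1 to 18.4 in the other 7 libraries. It was also the shallowest library, with 519028 counts, and its median change over all genes was -0.14, against -0.02 to 0.01 in the other LPS libraries. Among 1258 genes called higher whose groups did not overlap, mouse 6 was the LPS animal nearest to the PBS mean for 64.3%. Among 1567 such genes called lower it was nearest for 32.0%, close to mouse 5 with 31.5%. The part of depth in this was not tested. Counts without mouse 6 are therefore given beside those of many of the gene groups.

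LPS changed a large share of the lung transcriptome, 25.6% of the genes tested. Higher in LPS mice were 1544 genes (11.7%) and lower were 1842 (13.9%). The split between the directions depended on scaling: with median-of-ratios rescaling 1797 genes were called higher and 1685 lower, and the median change of all genes was -0.01 in place of -0.06. Without mouse 6 the counts were 1803 higher and 1869 lower. The groups did not overlap, LPS above PBS, for 1469 genes (11.1%), and LPS below PBS for 1890 (14.3%). The plot of calls by gene list shows how these were spread over pathways and cell types.

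**Figure D1:**
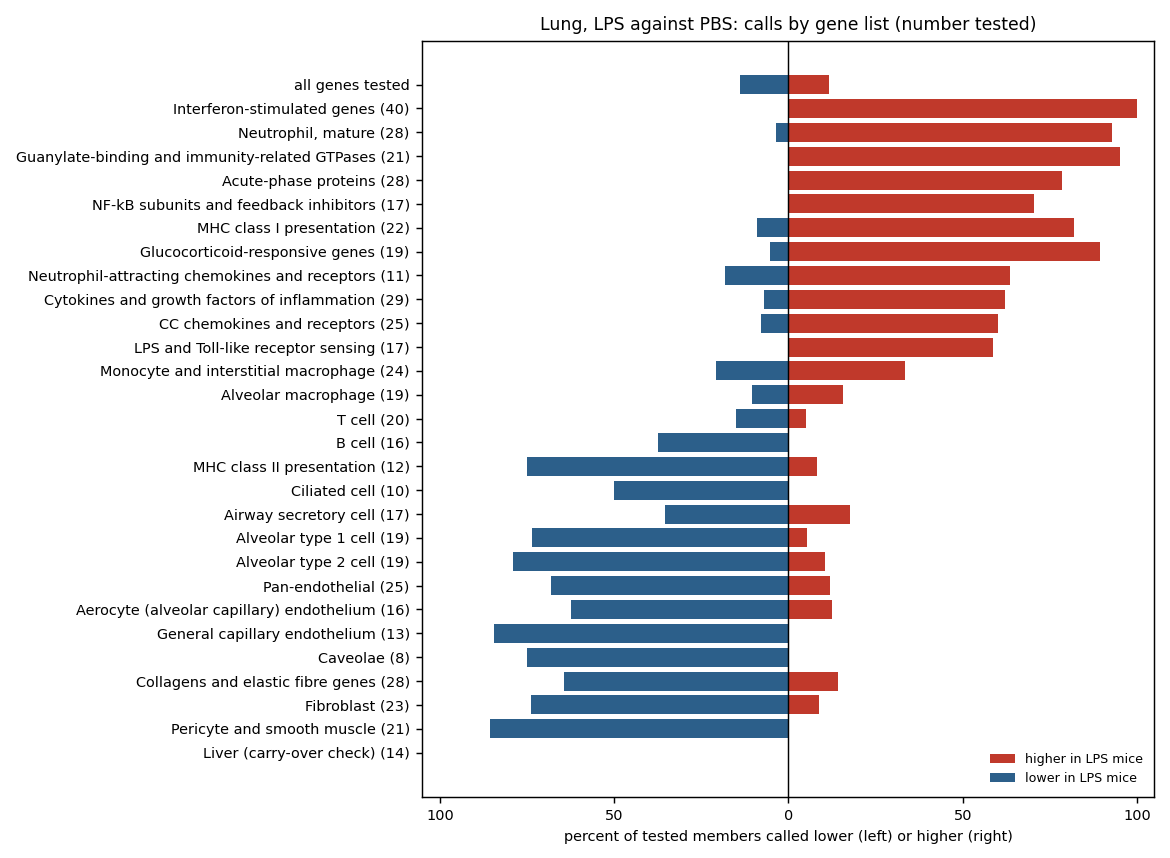
Percent of the tested members of each gene list (number tested in brackets) called higher in LPS mice, to the right in red, or lower in LPS mice, to the left in blue, with all genes tested in the top row (11.7% and 13.9%). The 40 interferon-stimulated genes all lie to the right, the pericyte, fibroblast, capillary and alveolar epithelial lists lie mostly to the left, and the liver list holds no call.

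The sensing arm rose in part. Of 17 genes for LPS and Toll-like receptor sensing tested, 10 were higher and none lower, with a median change of 0.62 against -0.06 over all genes. The receptor gene Tlr4 itself was not called, at 16.3, 13.2, 12.1 and 16.9 in LPS mice against 10, 8.21, 14.1 and 12.1 in PBS mice. Cd14, which hands LPS to the receptor, had a signal of 427, 223, 564 and 448 in LPS mice, against 50.1, 49.3, 61.1 and 52.1 in PBS mice, a change of 2.87 ± 0.18 (adjusted p = 1.9e-12). The 2 sets of Cd14 values lie far apart, with mouse 6 the lowest of the LPS animals. Irak3, a brake on this pathway, changed by 2.60 ± 0.23, the adaptor Myd88 by 1.40 ± 0.16 and Lbp by 0.74 ± 0.15. Without mouse 6 the count was again 10 higher and none lower.

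NF-kB subunits and feedback inhibitors were higher in 12 of 17 cases and lower in none, with a median of 1.37 (14 without mouse 6). Tnfaip3, which encodes the inhibitor A20, stood at 180, 145, 233 and 212 in LPS mice against 22.5, 21.5, 26.4 and 23 in PBS mice (2.97 ± 0.14, adjusted p = 1.5e-14). The lowest LPS animal lay far above the highest PBS animal. Nfkbia, the gene of the inhibitor IkB-alpha, averaged 773 ± 149 in LPS mice and 222 ± 8.59 in PBS mice (SD, n = 4 each). Socs3, an inhibitor of STAT3 signalling, averaged 163 ± 56.8 in LPS mice and 21.1 ± 2.51 in PBS mice, and changed by 2.83 ± 0.18.

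Most of the chemokines that attract neutrophils and their receptors rose. In this list 7 of 11 members were higher and 2 lower, and without mouse 6, 8 were higher. Cxcl2 reached 164, 64.4, 187 and 157 in LPS mice, against 5.01, 5.05, 3.21 and 1.21 in PBS mice (4.96 ± 0.29, adjusted p = 6e-13). Cxcl1 reached 52.9, 36.6, 69.8 and 68.4 in LPS mice, against 5.01, 7.58, 7.07 and 3.63 in PBS mice (3.08 ± 0.22, adjusted p = 1.5e-11). For both genes the lowest LPS animal, mouse 6, was still well above the highest PBS animal. Cxcl15, known as lungkine and made by lung epithelium, went the other way, at 272, 173, 336 and 225 in LPS mice against 1198, 1304, 1308 and 1281 in PBS mice (-2.38 ± 0.13, adjusted p = 3.3e-13). Cxcl12, which retains CXCR4-bearing leukocytes, was 40.8 ± 0.883 in LPS mice and 142 ± 4.07 in PBS mice (-1.77 ± 0.12). The receptor gene Cxcr2, carried by neutrophils and read by CXCL1 and CXCL2, averaged 54 ± 16.5 in LPS mice and 11.2 ± 2.84 in PBS mice.

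Cxcl1 and Cxcl2 are neighbours on chromosome 5, and the stretch before each start is shown because both hold a pair of kappa-B motifs, the letters that NF-kB factors bind. Each line runs 5′ to 3′ on the plus strand from base 250 to base 51 before the RefSeq start (GRCm38.p6, the mm10 build), chr5:90890995-90891194 for Cxcl1 and chr5:90903649-90903848 for Cxcl2. Capitals mark matches, on either strand, to GGG followed by any 2 bases and then TTTCC or TTCCC.
Cxcl1: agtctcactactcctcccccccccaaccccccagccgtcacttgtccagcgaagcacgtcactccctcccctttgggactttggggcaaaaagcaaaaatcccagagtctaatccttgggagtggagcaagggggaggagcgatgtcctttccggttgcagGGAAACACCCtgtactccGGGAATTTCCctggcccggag
Cxcl2: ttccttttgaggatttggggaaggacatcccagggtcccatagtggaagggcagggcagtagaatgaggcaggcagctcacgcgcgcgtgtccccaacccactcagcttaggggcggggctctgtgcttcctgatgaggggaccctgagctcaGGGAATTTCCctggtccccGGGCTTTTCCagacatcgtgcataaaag
The matches begin 89 and 71 bases before the start in Cxcl1, and 97 and 78 bases before it in Cxcl2. Such a match was found within 250 bases before the start in 2.72% of 27025 promoters and 3.25% of the 9922 promoters of tested genes. It was found in 7 of the 12 promoters listed for the NF-kB subunits and inhibitors and in 2 of 10 for the neutrophil chemokine list. Among genes called higher 5.65% of 1168 promoters held it, and among genes called lower 2.36% of 1358. These are matches of letters, not measured binding.

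Among CC chemokines and their receptors 15 of 25 members were higher and 2 lower (16 and 2 without mouse 6). Ccl20, a ligand of CCR6, reached 19.6, 5.86, 57.8 and 70.9 in LPS mice, against 0.835, 1.89, 1.29 and 0 in PBS mice (3.90 ± 0.49, adjusted p = 4.5e-07, and 4.57 without mouse 6). The spread among LPS animals was wide, and the lowest still exceeded each PBS animal. Ccl2, the ligand that recruits monocytes, averaged 54.7 ± 20.2 in LPS mice and 13.7 ± 0.586 in PBS mice (1.85 ± 0.20), while its receptor gene Ccr2 fell to 14.6 ± 3.7 in LPS mice, against 30.8 ± 5.76 in PBS mice (-1.04 ± 0.23). The CXCR3 ligands, which draw activated T and NK cells, were among the largest rises and the most variable. Cxcl9 had a signal of 1117, 312, 2054 and 1014 in LPS mice, against 33.4, 38.5, 37.9 and 42.4 in PBS mice (4.57 ± 0.31). Cxcl10 had 131, 20.5, 561 and 238 in LPS mice, against 2.51, 6.32, 6.43 and 2.42 in PBS mice (4.79 ± 0.53). The LPS animals spread widely for Cxcl10, whose change was 5.69 without mouse 6 and 4.12 without mouse 7.

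Inflammatory cytokines and growth factors were higher in 18 of 29 cases and lower in 2 (19 and 2 without mouse 6), with a median of 1.18. Il1b, which encodes the pyrogenic cytokine interleukin-1 beta, reached 305, 189, 258 and 274 in LPS mice, against 11.7, 15.8, 10.3 and 12.1 in PBS mice (4.25 ± 0.16, adjusted p = 4.7e-17). Its antagonists rose as far: Il1rn, the receptor antagonist, averaged 252 ± 73.7 in LPS mice and 14.2 ± 0.95 in PBS mice (4.00 ± 0.18), and Il1r2, the decoy receptor, averaged 214 ± 52.5 in LPS mice and 9.98 ± 2.01 in PBS mice (4.27 ± 0.20). Il6 was low in both groups on the signal scale, at 11.8, 24.9, 38.7 and 20.3 in LPS mice, against 0, 1.89, 1.29 and 0 in PBS mice, where 5 counts were found in all (3.84 ± 0.38). Tnf changed less, by 1.52 ± 0.24, from signals of 20.9, 11.7, 20.3 and 28.7 in LPS mice and 6.68, 8.84, 6.43 and 3.63 in PBS mice. Il33, an alarmin stored in the nuclei of barrier cells, was one of the members that fell, to 23.1 ± 5.04 in LPS mice against 67 ± 7.42 in PBS mice (-1.51 ± 0.16). Without LPS mouse 5 a single member of the list was called lower.

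**Figure D2:**
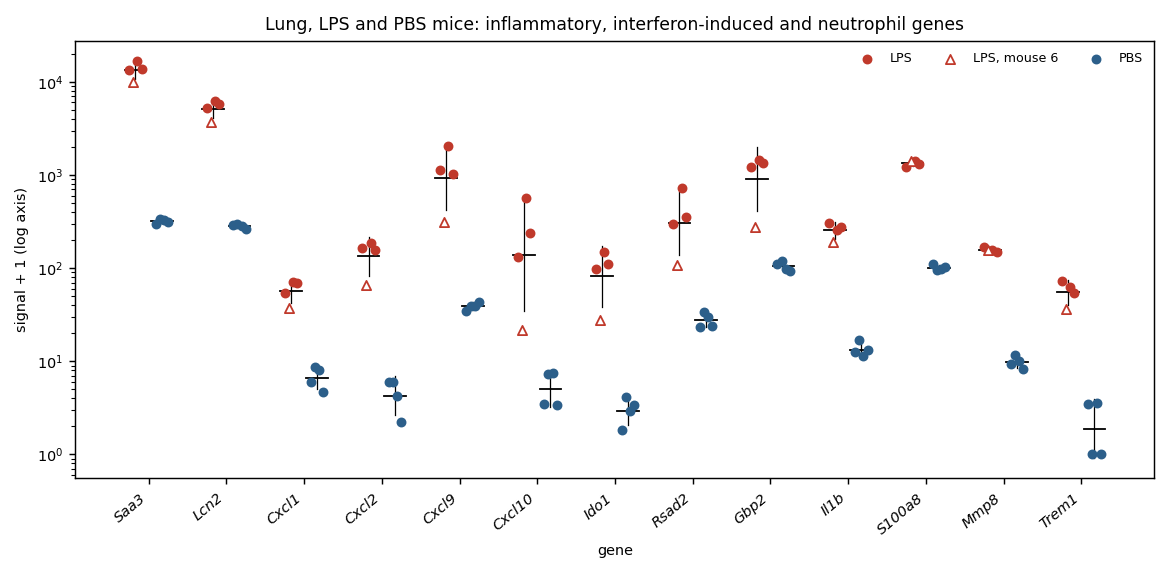
Signal + 1 on a log axis for 13 genes in each lung library, with LPS mice in red to the left of PBS mice in blue, and LPS mouse 6 as an open triangle. Bars show the mean ± SD of log2(signal + 1), n = 4. The LPS and PBS animals do not overlap for any of the 13 genes, and mouse 6 is the lowest LPS animal for Cxcl10 (20.5) but not for S100a8 (1415).

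Interferon-stimulated genes made up the most uniform group. All 40 members tested were called higher, with and without mouse 6, with a median of 2.01, and the groups did not overlap for 38 of them. Ifit3, which binds viral RNA in complexes with other IFIT proteins, reached 1132, 570, 1581 and 1176 in LPS mice, against 84.3, 91.6, 90 and 75.1 in PBS mice (3.61 ± 0.18, adjusted p = 2.9e-14). Rsad2, the antiviral enzyme viperin, reached 296, 108, 725 and 357 in LPS mice, against 22.5, 32.8, 28.9 and 23 in PBS mice (3.46 ± 0.30). The ubiquitin-like modifier Isg15 reached 352, 206, 533 and 384 in LPS mice, against 66, 58.1, 53.3 and 38.7 in PBS mice (2.70 ± 0.18). In these genes mouse 6 was the lowest LPS animal and yet above each PBS animal. Mx1, the GTPase of influenza resistance, was an exception to that separation, with 50.3, 11.7, 145 and 76.9 in LPS mice against 10, 4.42, 12.9 and 10.9 in PBS mice, and its change of 2.39 ± 0.43 became 3.07 without mouse 6.

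The interferon-stimulated response element (ISRE) is a short motif known from the promoters of interferon-induced genes, and the sequence before 4 of the genes that rose is printed to show it. Each line runs 5′ to 3′ on the gene's own strand from base 250 to base 51 before the RefSeq start (GRCm38.p6), at chr19:34583279-34583478 (plus) for Ifit3, chr12:26456503-26456702 (minus) for Rsad2, chr4:156200869-156201068 (minus) for Isg15 and chr5:92348940-92349139 (minus) for Cxcl10. Capitals mark matches, on either strand, to TTTC, any 2 bases and TTTC again, and overlapping matches merge into 1 block.
Ifit3: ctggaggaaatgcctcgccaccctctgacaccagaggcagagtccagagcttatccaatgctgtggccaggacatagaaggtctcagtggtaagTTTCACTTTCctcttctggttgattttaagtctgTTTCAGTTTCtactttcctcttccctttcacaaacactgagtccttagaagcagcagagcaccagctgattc
Rsad2: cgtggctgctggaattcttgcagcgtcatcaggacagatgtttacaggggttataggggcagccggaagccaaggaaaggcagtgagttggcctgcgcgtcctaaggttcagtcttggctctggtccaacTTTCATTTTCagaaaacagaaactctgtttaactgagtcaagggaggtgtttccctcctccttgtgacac
Isg15: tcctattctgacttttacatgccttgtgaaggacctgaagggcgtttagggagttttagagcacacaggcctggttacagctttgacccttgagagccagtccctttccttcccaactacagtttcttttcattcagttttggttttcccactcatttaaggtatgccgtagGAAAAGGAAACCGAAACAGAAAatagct
Cxcl10: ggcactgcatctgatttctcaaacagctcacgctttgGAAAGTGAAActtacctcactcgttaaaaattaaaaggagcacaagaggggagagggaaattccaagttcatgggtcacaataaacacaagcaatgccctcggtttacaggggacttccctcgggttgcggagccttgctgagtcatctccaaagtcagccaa
Ifit3 holds 2 matches, Isg15 holds 3 overlapping ones, and Rsad2 and Cxcl10 hold 1 each. The motif lies in 3.04% of all 27025 promoters over 250 bases, and in 12 of the 28 promoters listed for the interferon-stimulated genes. For the guanylate-binding and immunity-related GTPases it was found in 9 of 14. Among genes called higher 7.28% of promoters held it and among genes called lower 2.36%. In 26 promoters both motifs were present, and in 3 of these their letters overlapped.

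Guanylate-binding proteins and immunity-related GTPases, which attack the vacuoles of intracellular pathogens, were higher in 20 of 21 cases (21 without mouse 6), with a median of 2.34 and of 2.85 without mouse 6. Gbp2 reached 1212, 275, 1463 and 1345 in LPS mice, against 110, 119, 95.8 and 92 in PBS mice (3.10 ± 0.30). Cd274, which encodes the checkpoint ligand PD-L1, reached 368, 80.5, 447 and 410 in LPS mice, against 26.7, 40.4, 26.4 and 27.8 in PBS mice (3.14 ± 0.31, and 3.73 without mouse 6). In both, 3 LPS animals were alike and mouse 6 lay between them and the PBS animals. Ido1, the enzyme that degrades tryptophan, was near the edge of detection in PBS mice, with 98, 26.4, 149 and 109 in LPS mice, against 0.835, 3.16, 1.93 and 2.42 in PBS mice (4.79 ± 0.35, adjusted p = 3e-11).

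The branches of antigen presentation moved in opposite directions. For MHC class I, 18 of 22 genes were higher and 2 lower, with a median of 1.00 (20 and 2 without mouse 6). B2m, the light chain of class I molecules, averaged 5188 ± 896 in LPS mice and 2266 ± 120 in PBS mice (1.18 ± 0.11), and the peptide transporter gene Tap1 averaged 237 ± 97.7 in LPS mice and 56 ± 8.08 in PBS mice (1.95 ± 0.21). The members called lower, Calr (-0.43 ± 0.10) and Pdia3, are general chaperones of the endoplasmic reticulum. Pdia3 (-0.33 ± 0.11, adjusted p = 0.036) lost its call with rescaled values (-0.27) and when LPS mouse 7 or 8 or PBS mouse 2 or 3 was left out (-0.32 to -0.27). For MHC class II, 9 of 12 genes were lower and 1 higher, with a median of -0.99. Without mouse 6 the counts were the same and the median was -0.78. Here mouse 6 had the largest median fall (-1.29, against -0.88 to -0.70 in the other LPS animals). H2-Eb1, a class II chain, had 185, 120, 162 and 166 in LPS mice, against 312, 368, 342 and 345 in PBS mice (-1.12 ± 0.13), and the invariant chain gene Cd74 had 597, 403, 677 and 535 in LPS mice, against 706, 865, 855 and 855 in PBS mice (-0.59 ± 0.13). All LPS animals were below all PBS animals for both. Ciita, the class II transactivator gene, averaged 13.9 ± 8.04 in LPS mice and 12.2 ± 5.43 in PBS mice and was not called. Genes of B cells, which also carry class II, were lower in 6 of 16 cases and higher in none, and the summed signal of the 16 was 224 to 278 in LPS mice and 306 to 426 in PBS mice. Dendritic cell genes were higher in 6 of 14 cases and lower in 3. The part of either cell type in the class II result was not tested.

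Acute-phase genes, a programme best known from liver, were higher in 22 of 28 cases and lower in none (21 without mouse 6). Saa3 (chromosome 7, 46711998 to 46715700, minus strand, GRCm38), a serum amyloid gene known for expression outside the liver, had the largest rise of the genes whose groups did not overlap and whose higher group averaged at least 10, with 13349, 10061, 16882 and 13734 in LPS mice, against 300, 335, 329 and 312 in PBS mice (5.38 ± 0.12, adjusted p = 2.3e-21). Lcn2, whose product withholds bacterial siderophores, had 5293, 3659, 6183 and 5760 in LPS mice, against 292, 294, 282 and 265 in PBS mice (4.17 ± 0.12). In LPS mice the lung signal of Saa3 was 79.5% of that in liver, and that of Lcn2 51.5%. The other end of the list is different: Saa1 was 397 ± 31.7 in LPS lungs and 136 ± 9.15 in PBS lungs, and its LPS value was 1.54% of the 25701 in liver. A set of 14 genes of hepatocytes was present in lung at a median of 0.841% of the liver signal in LPS mice and 0.33% in PBS mice, with none of the 14 called. The range was 0.237% to 8.49% in LPS mice and 0.111% to 0.976% in PBS mice. These percentages also move with the liver signal. Alb averaged 89799 in LPS livers and 176799 in PBS livers, against 417 and 400 in lung. Ttr averaged 4706 and 17152 in liver, against 55 and 59.4 in lung. Hamp went the other way in liver, at 1830 in LPS mice and 1353 in PBS mice. Fabp1, which is also a gene of the alveolar macrophage list, gave the 8.49%, and the next highest was Cyp2e1 at 3.63%. In liver Fabp1 averaged 707 in LPS mice and 9320 in PBS mice, against 60 and 75.9 in lung. Cyp2e1 averaged 579 and 3198 in liver, against 21 and 24.1 in lung. The part of liver RNA in the rises of Saa1, Saa2 (0.707% of liver) and Orm1 (1.08% of liver) was not tested. In PBS mice the lung signal was 47% of liver for Saa1, 47.7% for Saa2 and 5.02% for Orm1. The PBS liver averages were 289, 169 and 717. Saa1 and Saa2 are also near-identical copies, and no source used here says how reads shared by such copies were counted, so the values of both are uncertain, as are those of families such as Ly6, Gbp and the class I H2 genes.

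Genes of mature neutrophils were almost all higher in LPS mice. Of 28 tested, 26 were higher and 1 lower, with a median of 2.99, and without mouse 6, 27 were higher. S100a8, a subunit of the antimicrobial complex calprotectin, had 1225, 1415, 1408 and 1315 in LPS mice, against 109, 93.5, 95.8 and 103 in PBS mice (3.73 ± 0.13, adjusted p = 1e-17). Mmp8, the collagenase of neutrophil granules, had 167, 155, 157 and 149 in LPS mice, against 8.35, 10.7, 9 and 7.26 in PBS mice (4.02 ± 0.18). Ly6g, the surface protein used to define mouse neutrophils, had 20.9, 17.6, 22.8 and 26.2 in LPS mice, against 1.67, 1.26, 2.57 and 2.42 in PBS mice (2.95 ± 0.25). These values were tight within each group, and mouse 6 did not stand apart. The member that fell was G0s2, a lipase inhibitor that other cells also express (-0.74 ± 0.18). Some members that rose in lung were also higher in the bone marrow of LPS mice. There Acod1 averaged 73.5 in LPS mice and 3.34 in PBS mice, and Il1r2 178 and 40.8. S100a8 was not higher there, at 4262 and 4764. The part of expression per cell in the lung rises was not tested.

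Summed over the 28 neutrophil genes, the signal was 6558 to 7268 in LPS mice and 797 to 880 in PBS mice. Trem1, a receptor that amplifies inflammation, had 71.9, 35.1, 62.2 and 53.2 in LPS mice, against 2.51, 0, 2.57 and 0 in PBS mice (4.86 ± 0.35). In LPS mice the lung signal of Trem1 was 307% of that in bone marrow, and in PBS mice 7.43%. The LPS value was the highest of the neutrophil genes set against bone marrow. For S100a8, Mmp8 and Ly6g the lung signal was 31.4%, 92.2% and 298% of bone marrow in LPS mice. In PBS mice it was 2.11%, 2.53% and 2.98%. Of 12 granule genes of neutrophil progenitors, a list that also holds Lcn2 and Ngp, 5 were higher and none lower (6 without mouse 6). Mpo, the myeloperoxidase gene, had 7.19, 7.32, 14.6 and 14.4 in LPS mice, against 5.01, 4.42, 5.14 and 6.05 in PBS mice (0.88 ± 0.30, adjusted p = 0.03). That call was lost when LPS mouse 7 or 8 or PBS mouse 1, 2 or 3 was left out, with changes of 0.73 to 0.88. Elane, neutrophil elastase, averaged 6.11 ± 1.35 in LPS mice and 3.27 ± 1.31 in PBS mice and was not called, except when PBS mouse 4 was left out (0.94, adjusted p = 0.048) and by edgeR (1.07, adjusted p = 0.042). Over Mpo, Elane, Prtn3, Ctsg, Ms4a3 and Fcnb the lung signal was 3.17% to 4.9% of that in bone marrow in LPS mice and 0.999% to 1.71% in PBS mice. These percentages also move with the bone marrow signal. In bone marrow Mpo averaged 222 in LPS mice and 418 in PBS mice. Fcnb averaged 69.5 and 131 there, against 2.29 and 1.93 in lung. Ms4a3 was the exception in bone marrow, at 74.6 in LPS mice and 70 in PBS mice. Ngp, a secondary granule gene that is transcribed later, averaged 415 ± 113 in LPS mice and 51.2 ± 3.27 in PBS mice (2.95 ± 0.19).

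Most of the alveolar macrophage and T cell genes tested were not called. Of 19 alveolar macrophage genes 3 were higher and 2 lower, near the 11.7% and 13.9% of all genes, and only 1 was lower without PBS mouse 2 or 3. Lpl, lipoprotein lipase, was the furthest, at 591 ± 50.7 in LPS mice and 175 ± 11.9 in PBS mice (1.75 ± 0.11), and Lpl is also expressed by other lung cells. Of 24 genes of monocytes and interstitial macrophages 8 were higher and 5 lower. Ly6c2, a marker of classical monocytes, averaged 188 ± 31.8 in LPS mice and 47.1 ± 9.31 in PBS mice (1.98 ± 0.18), and Fcgr4, an activating Fc receptor, averaged 209 ± 66.4 in LPS mice and 13.7 ± 4 in PBS mice (3.82 ± 0.21). Against these, Ccr2 and Cx3cr1, a marker of patrolling monocytes, were lower, and C1qa and Csf1r were not called. Cx3cr1 (-1.55 ± 0.44) rests on few counts and missed the threshold when PBS mouse 2 was left out (-1.31, adjusted p = 0.052). T cell genes were higher in 1 of 20 cases and lower in 3, and the 1 was lost without LPS mouse 7 or 8 or PBS mouse 2 or 4, while 1 was lower without LPS mouse 8 or PBS mouse 2. Gzmb, a protease of cytotoxic cells, was among the 4 NK cell genes that rose of 8 tested, at 73.2, 52.7, 124 and 87 in LPS mice against 15, 16.4, 16.7 and 10.9 in PBS mice (2.39 ± 0.20). Klrd1, an NK cell receptor gene, was the 1 lower (-0.90 ± 0.33, adjusted p = 0.046), and that call was lost when LPS mouse 7 or 8 or any PBS mouse was left out, with changes of -0.60 to -0.93. The other 8 genes of the NK cell list were not among the symbols of the 13820 genes, so they could not be tested.

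Genes of both cell types of the alveolar epithelium were mostly lower in LPS mice. Type 2 cell genes were lower in 15 of 19 cases and higher in 2, with a median of -0.87, and the same counts held without mouse 6. Sftpc, which encodes the hydrophobic surfactant protein C, had 14517, 11403, 13331 and 12086 in LPS mice, against 30928, 34094, 33851 and 32052 in PBS mice (-1.36 ± 0.13, adjusted p = 4.1e-09). Sftpb had 667, 567, 618 and 498 in LPS mice, against 1665, 1658, 1648 and 1546 in PBS mice (-1.48 ± 0.11). Both groups were tight and far apart. The fall was uneven across the surfactant machinery: the hydrophilic collectin gene Sftpa1 fell less (-0.60 ± 0.10), and the other collectin gene Sftpd rose, with 1095, 709, 1170 and 891 in LPS mice against 538, 546, 616 and 585 in PBS mice (0.73 ± 0.12). Lpcat1, which remodels surfactant phosphatidylcholine, averaged 305 ± 41.7 in LPS mice and 778 ± 25.3 in PBS mice (-1.36 ± 0.10), and Abca3, the lipid transporter of lamellar bodies, averaged 68.5 ± 8.43 in LPS mice and 125 ± 7.49 in PBS mice (-0.87 ± 0.12). Nkx2-1, the lineage factor of lung epithelium, moved less (-0.45 ± 0.14, adjusted p = 0.021). Its groups overlapped, and the call was lost when LPS mouse 7 or 8 or PBS mouse 1 or 3 was left out (-0.44 to -0.34).

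Type 1 cell genes were lower in 14 of 19 cases and higher in 1 (13 and 1 without mouse 6), with a median of -0.70. Aqp5, an apical water channel, had 76.5, 76.1, 60.9 and 46.5 in LPS mice, against 161, 164, 165 and 163 in PBS mice (-1.35 ± 0.14). Rtkn2 fell furthest and varied most, with 39.2, 39.5, 7.62 and 15.2 in LPS mice against 94.4, 130, 94.5 and 100 in PBS mice (-2.26 ± 0.30). Ager averaged 253 ± 24.4 in LPS mice and 408 ± 21.6 in PBS mice (-0.69 ± 0.11). Hopx, another marker of these cells, was not called, at 1605 ± 80.3 in LPS mice and 1755 ± 32.7 in PBS mice, and Pdpn, which encodes podoplanin, rose (0.52 ± 0.14). Genes for fluid clearance were mixed, 6 higher and 5 lower of 18: the sodium channel subunit gene Scnn1a rose (0.48 ± 0.11), Scnn1b fell (-0.44 ± 0.16, adjusted p = 0.042), Scnn1g was not called, and the capillary water channel gene Aqp1 fell (-1.10 ± 0.11). The call of Scnn1b was lost when LPS mouse 8 or any PBS mouse was left out, with changes of -0.29 to -0.47, and by edgeR (-0.36, adjusted p = 0.076).

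In the airways, 6 of 17 secretory cell genes were lower and 3 higher. Scgb1a1, the club cell secretoglobin and the gene with the highest signal in PBS lungs, was not called, with 46895, 37532, 44836 and 43853 in LPS mice against 47938, 50585, 51351 and 46382 in PBS mice (-0.18 ± 0.13, adjusted p = 0.35). Cyp2f2, a cytochrome P450 of the same cells, had 612, 684, 348 and 371 in LPS mice, against 2208, 2452, 2515 and 2303 in PBS mice (-2.29 ± 0.15). Scgb3a2, another secretoglobin, averaged 324 ± 101 in LPS mice and 1110 ± 94.6 in PBS mice (-1.83 ± 0.16). These club cell genes thus moved unequally. Retnla, a secreted resistin-like protein, averaged 1147 ± 311 in LPS mice and 181 ± 50.4 in PBS mice (2.65 ± 0.17), and Pigr, the transporter of IgA, changed by 1.41 ± 0.20, while Bpifa1 was not called. Ciliated cell genes were lower in 5 of 10 cases and higher in none, and Foxj1, their master regulator, was not called.

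**Figure D3:**
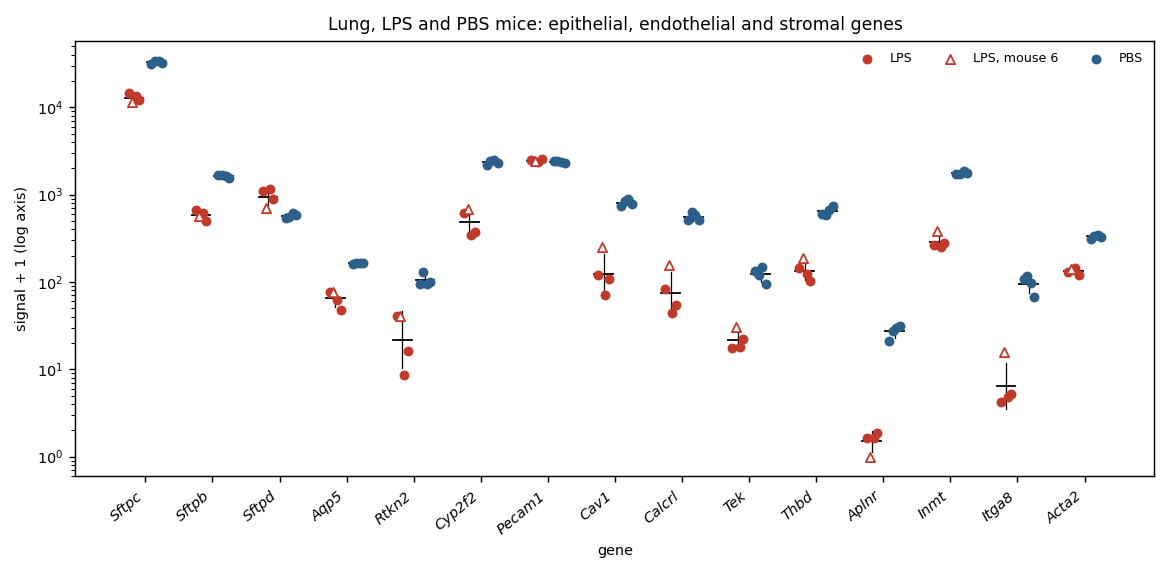
Signal + 1 on a log axis for 15 genes of epithelial, endothelial and stromal cells in each lung library, with LPS mice in red to the left of PBS mice in blue, and LPS mouse 6 as an open triangle. Bars show the mean ± SD of log2(signal + 1), n = 4. Sftpd is the only one of the 15 that is higher in LPS mice without overlap, Pecam1 lies at the same height in both groups, and mouse 6 is the LPS animal nearest to the PBS mice for Cav1 (250) and Calcrl (155).

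Endothelial genes were mostly lower, but unevenly so. Of 25 pan-endothelial genes 17 were lower and 3 higher (19 and 3 without mouse 6), with a median of -0.69. Pecam1 and Cdh5, the junction genes by which endothelium is usually counted, were not called: Pecam1 had 2492, 2409, 2366 and 2552 in LPS mice, against 2398, 2409, 2368 and 2301 in PBS mice (0.05 ± 0.09, adjusted p = 0.74), and Cdh5 averaged 343 ± 34.3 in LPS mice and 341 ± 26.8 in PBS mice (0.00 ± 0.10). Tek, the receptor TIE2, had 16.3, 29.3, 17.1 and 21.1 in LPS mice, against 132, 119, 149 and 93.2 in PBS mice (-2.52 ± 0.17, adjusted p = 1.1e-11). Its partner Tie1 (-1.83 ± 0.18) and its agonist Angpt1 (-1.94 ± 0.24) fell too, and its context-dependent antagonist Angpt2 rose, with 62.7, 54.2, 117 and 88.7 in LPS mice against 12.5, 19.6, 10.3 and 19.4 in PBS mice (2.30 ± 0.22). In all 4 LPS animals Tek, Tie1 and Angpt1 lay below the PBS range and Angpt2 above it.

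Caveolar genes, whose products shape the membrane pits of endothelial and type 1 cells, were lower in 6 of 8 cases and higher in none (7 without mouse 6), with a median of -1.74. Cav1 had 120, 250, 70.4 and 106 in LPS mice, against 745, 841, 879 and 775 in PBS mice (-2.71 ± 0.21). Calcrl, the receptor for adrenomedullin, had 82.3, 155, 43.2 and 54.1 in LPS mice, against 509, 633, 584 and 509 in PBS mice (-2.89 ± 0.23), and its partner Ramp2 fell as well (-1.73 ± 0.22). The ligand gene Adm rose to 35.2 ± 9.05 in LPS mice, against 9.42 ± 5.06 in PBS mice (1.87 ± 0.25). Mouse 6 showed the smallest fall of Cav1, Calcrl and Ramp2.

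Genes of both capillary types were mostly lower. Of 13 general capillary genes 11 were lower and none higher (12 without mouse 6), and of 16 genes of aerocytes, the capillary cells of gas exchange, 10 were lower and 2 higher (1 higher without LPS mouse 5). The apelin receptor gene Aplnr, a general capillary marker, fell to 3 counts in the 4 LPS libraries together against 136 in the PBS libraries, which is 43.7-fold lower in LPS mice (95% counting interval 14.6 to 214). Its ligand gene Apln, made by aerocytes, had 1.96, 8.79, 2.54 and 0.845 in LPS mice, against 30.9, 20.8, 17.4 and 21.8 in PBS mice (-2.65 ± 0.36). Ednrb, the endothelin B receptor gene and a marker of aerocytes, had 11.8, 11.7, 14.6 and 9.29 in LPS mice, against 81, 73.9, 74.6 and 55.7 in PBS mice (-2.50 ± 0.22). Car4, another aerocyte gene, was not called (-0.58 ± 0.24), and in mouse 6 it stood at 73.2, against 165 to 249 in the other LPS animals. It was called lower when LPS mouse 5 (-0.76) or LPS mouse 7 (-0.78) was left out.

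Coagulation and adhesion genes of the endothelial surface moved in both directions. Thbd, the anticoagulant receptor thrombomodulin, had 142, 185, 121 and 101 in LPS mice, against 600, 587, 664 and 739 in PBS mice (-2.26 ± 0.17). Plat, a plasminogen activator, averaged 256 ± 32.7 in LPS mice and 56.9 ± 4.19 in PBS mice (2.15 ± 0.11). Of 25 coagulation and fibrinolysis genes 9 were higher and 2 lower, the other being Vwf (-1.59 ± 0.15), whose product tethers platelets. Changes over this list ran from -2.26 to 3.67, so Plat was not its largest rise. Selp, the P-selectin gene, had 64.7, 39.5, 117 and 102 in LPS mice, against 5.01, 6.32, 4.5 and 3.63 in PBS mice (3.71 ± 0.25), and Icam1, which binds leukocyte integrins, changed by 1.59 ± 0.15. Vcam1 was not called over 4 animals (0.45 ± 0.21, adjusted p = 0.13) and was called without mouse 6 (0.75, adjusted p = 0.00044) and by edgeR (0.70, adjusted p = 0.0042).

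Stromal genes were mostly lower in LPS mice. Fibroblast genes were lower in 17 of 23 cases and higher in 2, and pericyte and smooth muscle genes in 18 of 21 and none, with medians of -1.05 and -1.31. Inmt, a methyltransferase of alveolar fibroblasts, had 264, 378, 252 and 275 in LPS mice, against 1703, 1727, 1883 and 1782 in PBS mice (-2.62 ± 0.12, adjusted p = 9.6e-15). Itga8, an integrin chain of the same cells, had 3.27, 14.6, 3.81 and 4.22 in LPS mice, against 107, 116, 95.1 and 65.4 in PBS mice (-3.89 ± 0.29). Not every gene followed: Pdgfra (0.79 ± 0.11), the growth factor receptor by which fibroblasts are sorted, and Dcn (0.66 ± 0.12) rose, and Pdgfrb, the pericyte receptor gene, was not called. Acta2, smooth muscle actin, averaged 133 ± 10.4 in LPS mice and 331 ± 17.1 in PBS mice (-1.31 ± 0.11).

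Matrix genes divided in a similar way. Of 28 collagen and elastic fibre genes 18 were lower and 4 higher, with a median of -0.90. The fibrillar collagen gene Col3a1 averaged 157 ± 20.8 in LPS mice and 377 ± 11.7 in PBS mice (-1.26 ± 0.10), and Col6a3 had 7.19, 4.39, 6.35 and 6.76 in LPS mice, against 71, 68.8, 53.3 and 61.8 in PBS mice (-3.18 ± 0.22). The basement membrane gene Col4a1 was opposite, at 1369 ± 115 in LPS mice and 642 ± 25.6 in PBS mice (1.09 ± 0.09), as was Lox, the collagen cross-linking oxidase (2.22 ± 0.13). Timp1, an inhibitor of matrix proteases, had 267, 185, 370 and 294 in LPS mice, against 19.2, 16.4, 11.6 and 9.69 in PBS mice (4.20 ± 0.19).

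Genes that respond to glucocorticoids, the stress hormones of the adrenal, were higher in 17 of 19 cases and lower in 1. The member that was lower was the receptor gene Nr3c1 (-0.34 ± 0.12, adjusted p = 0.044), which lost its call with rescaled values (-0.28) and when any animal other than LPS mouse 7 was left out (-0.36 to -0.31). Fkbp5, a co-chaperone of that receptor, had 351, 259, 347 and 334 in LPS mice, against 134, 84.6, 95.8 and 71.4 in PBS mice (1.76 ± 0.14). Several members, such as Lcn2 and Cebpd, also answer to cytokines. The metallothionein gene Mt2 averaged 2894 ± 1071 in LPS mice and 318 ± 17.1 in PBS mice (3.09 ± 0.18), and the zinc importer gene Slc39a14 averaged 206 ± 65.1 in LPS mice and 22.4 ± 5.47 in PBS mice (3.11 ± 0.20). Nr1d1, which encodes the clock repressor REV-ERB-alpha, had 15, 8.79, 11.4 and 14.4 in LPS mice, against 76.8, 78.9, 82.9 and 29.1 in PBS mice (-2.26 ± 0.29), with PBS mouse 4 well below the other PBS animals. It had the largest fall of 18 circadian clock genes, of which 5 were higher, 3 lower and 10 not called, with a median of 0.09. Only 1 was lower without LPS mouse 5 or 7 or PBS mouse 2 or 3. Dio2, the deiodinase that activates thyroid hormone, had 83.6, 19, 155 and 118 in LPS mice, against 1.67, 3.16, 4.5 and 2.42 in PBS mice (4.30 ± 0.44, and 4.94 without mouse 6). Apod, a lipocalin, had 735, 659, 951 and 828 in LPS mice, against 31.7, 27.2, 39.2 and 29.1 in PBS mice (4.60 ± 0.13).

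**Figure D4:**
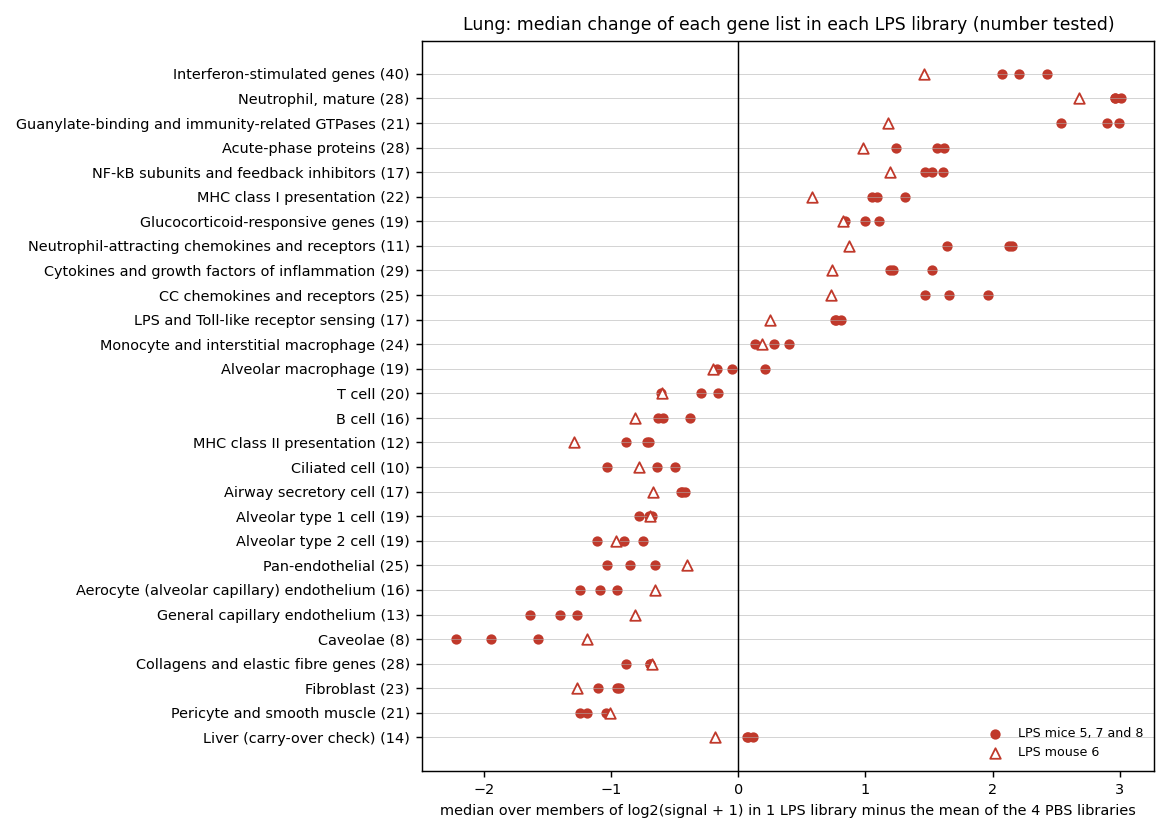
Median over the members of each gene list of log2(signal + 1) in 1 LPS library minus the mean of the 4 PBS libraries, with LPS mouse 6 as an open triangle and the other LPS mice as filled dots. Mouse 6 lies nearest to the line of no change for the guanylate-binding list (1.18, against 2.54 to 2.99) and for caveolae (-1.19, against -2.22 to -1.57), and near the other LPS mice for mature neutrophil genes (2.68, against 2.96 to 3.01).

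To see which of these changes were larger or smaller in lung than elsewhere, the change in lung was set against the mean change in the other 14 tissues of the same animals, as 1 difference per mouse tested with limma. The lung change lay above the others for 912 genes (6.89% of those tested) and below for 1070 (8.08%). This test carries the mouse as a block, and without the replicate block 689 genes lay above and 749 below. Of the neutrophil genes, 25 of 28 lay above the other tissues and none below, with a median difference of 2.27 against -0.04 over all genes. S100a8 changed by 3.73 in lung and by 0.35 on average elsewhere, over a range of -0.16 to 1.32, a difference of 3.37 ± 0.11 (adjusted p = 3.5e-21). Ido1 changed by 4.79 in lung and 0.32 elsewhere (difference 4.47 ± 0.29), Apod by 4.60 and 1.02 (difference 3.58 ± 0.12), and Dio2 by 4.30 and 0.46 (difference 3.84 ± 0.38). Over the other tissues the changes ranged from -3.3 to 2.3 for Ido1, from 0.03 to 2.66 for Apod and from -2.41 to 1.59 for Dio2. The means of Ido1 and Dio2 elsewhere thus join falls and rises. For each of these genes, the lung change exceeded the largest of the other tissues.

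Interferon-stimulated genes lay above in 26 of 40 cases and below in none, with a median difference of 0.71 against -0.04 over all genes. The guanylate-binding and immunity-related GTPases lay above in 12 of 21 cases and below in none, with a median difference of 0.59. Some single genes with large changes in lung changed about as much elsewhere. Cd14 changed by 2.87 in lung and 2.55 elsewhere (difference 0.32 ± 0.13, adjusted p = 0.11), and Gbp2 by 3.10 and 2.74 (difference 0.36 ± 0.17, adjusted p = 0.17). Icam1 changed by 1.59 in lung and 1.56 elsewhere (difference 0.03 ± 0.12, adjusted p = 0.93). For Cd14, Gbp2 and Icam1 the test did not separate lung from the others. Among genes that were lower, general capillary genes lay below the other tissues in 11 of 13 cases, pan-endothelial genes in 17 of 25, and fibroblast genes in 16 of 23. Calcrl changed by -2.89 in lung and -0.11 elsewhere (difference -2.79 ± 0.18, adjusted p = 1e-13), and Clec1a, a lectin of endothelium, by -3.23 and -0.35 (difference -2.87 ± 0.23). Stmn2, a microtubule regulator known from neurons, had the largest difference among the non-overlapping genes that fell, from signals of 6.53, 5.86, 6.35 and 8.45 in LPS mice and 87.7, 94.7, 97.1 and 94.4 in PBS mice (difference -3.36 ± 0.23). Retnla rose in lung (2.65) and averaged -0.47 elsewhere, over a range of -1.57 to 0.22.

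**Figure D5:**
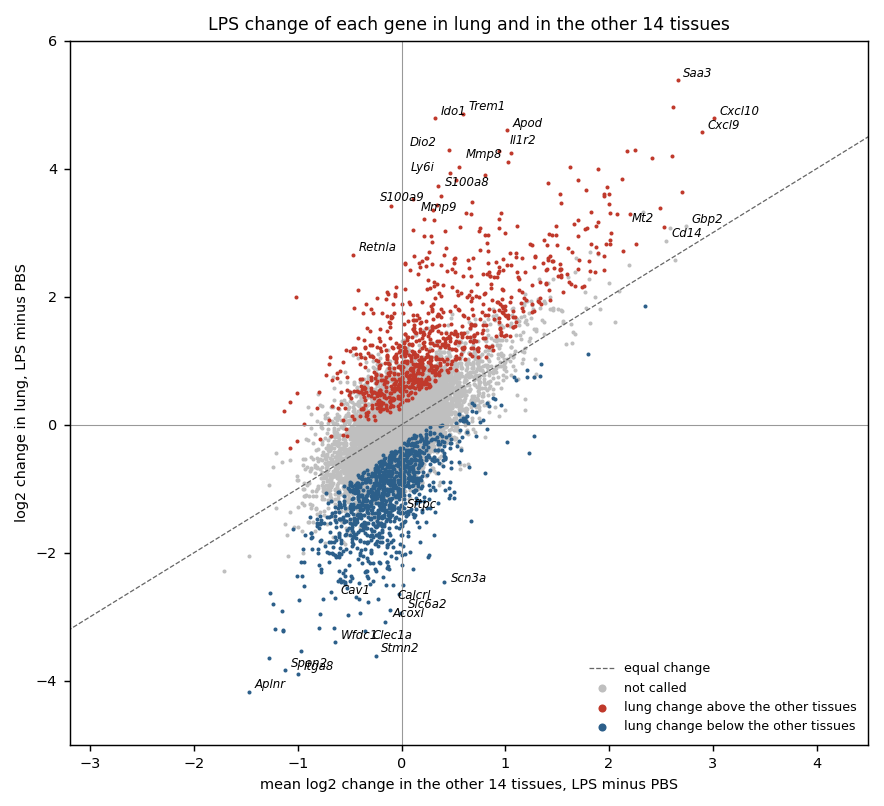
Log2 change of each gene, LPS minus PBS, in lung on the vertical axis and as the mean of the other 14 tissues on the horizontal axis, with 1 point per gene tested. Red points lie above the other tissues by limma's test (912 genes), blue points below (1070 genes) and grey points were not called, and the dashed line marks an equal change.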

How the data were processed

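RNA of 15 tissues was sequenced as poly(A)-primed 3′ tag libraries with a sample barcode and a UMI of 10 bp, per the labels' protocols. The use of the UMIs and the aligner are not given in the sources used here. The build was mm10, and FastQC, MultiQC and edgeR are named without versions, per the submitters' processing notes. The authors deposited a normalised signal per gene, named CPM, whose sums differ between libraries (760016 to 933026). In the 8 libraries 100% of values were whole multiples (within 0.1) of the signal of 1 count, so counts could be recovered. Totals of the 8 libraries ran from 519028 to 1470100, and intervals from counts cover counting error only.

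Genes that reached a signal of 1 in 4 or more of 12 lung libraries were tested with limma 3.58.1 (R 4.3.3) on log2(signal + 1), with a trended variance, 3 groups and 9 residual degrees of freedom, and Benjamini-Hochberg adjustment. A pseudocount of 1 understates the change of low genes. The comparison with the other 14 tissues used 1 difference per mouse, lung minus the mean of its other tissues, since all tissues of a number come from the same animal, per the labels. Tested on simulated data with 13157 genes, limma recovered 98% and 100% of genes changed by -2 and 2 (log2), and 54% and 70% of those changed by -1 and 1. The changed genes, 50 per size, all had a PBS mean of at least 10. The simulation used 1 dispersion for all genes and held no outlying animal. Rates for lower genes, or with a library such as that of mouse 6, were not tested. The alternatives were pseudocounts of 0.25 and 4, other filters, median-of-ratios size factors (DESeq2 1.42.0), the 8 libraries alone, edgeR 4.0.16 on the recovered counts, other tissue sets, and leaving out each animal. No library pair agreed within sampling noise (lowest chi-square per degree of freedom 1.35). Labels give no batch.

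Named were the 15 genes per direction with the largest change among those called with a mean of at least 10 in the higher group and no overlap, key genes and the largest changes of each list, members called against their list, and 10 genes per direction for the other tissues. Only a subset is printed. Ly6g, Ramp2 and Saa2 were chosen after their values were seen. The members and lists were chosen with earlier results of these data known. Gene positions are from GENCODE M21, and promoters from RefSeq.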

Additional observations from a re-analysis of the deposited data

Results flagged for a closer look

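In 15 of 300 groups of 4 animals (5.0%), checked for 150 genes, 1 animal lay far from the other 3 by Dixon's criterion, and chance gives about 1 in 20. LPS mouse 6 accounted for 7 of the 15. It was low for Cd274 (80.5, against 368 to 447 in the other LPS animals), Cxcl2 (64.4, against 157 to 187), Fkbp5 (259, against 334 to 351), Gbp2 (275, against 1212 to 1463) and Pdgfra (398, against 505 to 523). It was high for Clec1a (27.8, against 5.91 to 7.62) and Itga8 (14.6, against 3.27 to 4.22). LPS mouse 7 was high for Nr3c1 (73.6, against 67.4 to 68), and LPS mouse 8 was high for Prtn3 (5.91, against 2.93 to 3.27).

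Among PBS animals, mouse 1 was low for Calr (636, against 778 to 808), Cd74 (706, against 855 to 865) and Scgb3a2 (970, against 1144 to 1178). PBS mouse 2 was high for Cd274 (40.4, against 26.4 to 27.8). PBS mouse 4 was low for Nr1d1 (29.1, against 76.8 to 82.9) and for Sftpb (1546, against 1648 to 1665).

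By limma's test of the difference itself, these genes of the non-overlapping set changed most unlike the mean of the other 14 tissues. Above it were Ido1 (4.47), Trem1 (4.28), Dio2 (3.84), Apod (3.58), Mmp8 (3.47), Ly6i (3.47), Mmp9 (3.42), S100a8 (3.37), Il1r2 (3.33) and S100a9 (3.20). Below it were Stmn2 (-3.36) and Scn3a (-2.87), both known from neurons, Slc6a2 (-2.94), the noradrenaline transporter of sympathetic nerves, Acoxl (-2.93), Itga8 (-2.89), Clec1a (-2.87), Calcrl (-2.79), Wfdc1 (-2.76), Spon2 (-2.72) and Aplnr (-2.71).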

How the results depend on the processing

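Neither the totals of called genes nor the counts over all lists moved by more than 1.5 times under the alternatives run, and no named gene reversed. Small counts of single lists moved further: 3 cell cycle genes were higher, against 6 by edgeR, 5 without LPS mouse 6 and 1 without LPS mouse 7. With animals left out singly, 1282 to 1803 genes were called higher in lung and 1519 to 1869 lower, against 1544 and 1842 with all animals; edgeR gave 1912 and 1844. Against the other tissues, leaving out animals gave 720 to 1030 genes above and 859 to 1017 below. The mouse block moved that count: with no replicate block 689 lay above and 749 below, against 912 and 1070. No paired analysis was possible within lung because LPS and PBS mice share no replicate numbers. Members of any list numbered 385 higher and 227 lower, and 360 to 407 and 206 to 233 with animals left out. Of the 129 called genes named, 122 kept their call under each alternative that tested them and 7 lost it under at least 1, Klrd1 under 10, Nr3c1 under 9, Scnn1b under 8, Mpo and Pdia3 under 5 each, Nkx2-1 under 4 and Cx3cr1 under 1; the cause was not tested. Depth limits genes of a few counts, such as Cx3cr1 and Il6, whose changes also move with the pseudocount. All results rest on 4 animals a group at 1 dose and 1 time.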

Other observations

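Of 15 genes for pyroptosis, inflammasomes and necroptosis 11 were higher and none lower, with a median of 1.06. Casp4, the mouse sensor of LPS inside the cell known as caspase-11, had 100, 51.3, 143 and 128 in LPS mice, against 25.1, 11.4, 19.3 and 6.05 in PBS mice (2.76 ± 0.29). Zbp1, a sensor of necroptosis, averaged 235 ± 61.4 in LPS mice and 22.7 ± 3.25 in PBS mice (3.29 ± 0.16), and the groups of both genes did not overlap. Glycolysis and hypoxia genes were higher in 11 of 22 cases and lower in 1, and the other 10 were not called. The 1 lower was Epas1, which encodes HIF-2alpha, at 563 ± 106 in LPS mice and 1109 ± 44.9 in PBS mice (-0.99 ± 0.11). Hif1a averaged 93.6 ± 36.8 in LPS mice and 25.1 ± 7.49 in PBS mice (1.81 ± 0.22), and Pfkfb3, an activator of glycolysis, averaged 194 ± 66.8 in LPS mice and 54.8 ± 10.1 in PBS mice (1.74 ± 0.19). Cell cycle genes were largely not called, 3 higher and none lower of 26 (5 higher without LPS mouse 6 and 1 without LPS mouse 7). The number higher is near the share over all genes, of which 11.7% were higher and 13.9% lower.

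Of 14 dendritic cell genes 6 were higher and 3 lower. Ccl22, a chemokine of dendritic cells and macrophages, had 94.1, 67.4, 94.6 and 82.8 in LPS mice, against 7.52, 9.47, 2.57 and 9.69 in PBS mice (3.48 ± 0.26). Ccr7, the receptor that guides dendritic cells to lymph nodes, averaged 136 ± 39.9 in LPS mice and 48.1 ± 3.41 in PBS mice (1.43 ± 0.17). Cd209a, a lectin of monocyte-derived dendritic cells, was lower, at 0, 0, 2.54 and 1.69 in LPS mice against 7.52, 17.7, 16.1 and 6.05 in PBS mice, and so were Siglech (-1.29 ± 0.36), a marker of plasmacytoid dendritic cells, and Zbtb46 (-0.93 ± 0.21), a transcription factor of conventional ones. Outside that list, Mgl2, another lectin of macrophages and dendritic cells, had 5.88, 1.46, 7.62 and 4.22 in LPS mice against 45.9, 56.2, 54.6 and 37.5 in PBS mice (-3.22 ± 0.32). Lyve1, a receptor of lymphatic endothelium and of some interstitial macrophages, rose to 1766 ± 258 in LPS mice, against 310 ± 46.7 in PBS mice (2.51 ± 0.12). Mesothelial genes were lower in 5 of 6 cases, with Upk1b at 23.4 ± 2.98 in LPS mice and 113 ± 26.9 in PBS mice (-2.20 ± 0.17).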
